A study of Mus musculus with 137 samples.

Results

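Duodenal crypts of mice given 20 ppm hexavalent chromium, Cr(VI), in drinking water for 7 days were compared with crypts of untreated mice of the same day. The members were chosen by compartment, dose, and exposure time in the sample labels, and were 10 samples of the series, which held 127 others: 5 crypts at 20 ppm (mice 366 to 370) and 5 at 0 ppm (mice 46 to 50). All mice were wildtype B6C3F1 females, Cr(VI) was supplied as sodium dichromate dihydrate, and each sample came from a different mouse. The end of the 7-day exposure is called day 8 and the end of the 90-day exposure day 91. RNA of crypts scraped from fixed, paraffin-embedded sections was measured by TempO-Seq, in which pairs of detector oligonucleotides that meet on a transcript are ligated and sequenced. The series also held villi of the same mice and doses of 0.1, 1.4, 5, 60, and 180 ppm.

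The crypt is the part of the intestinal lining where stem cells divide and where Paneth cells secrete antimicrobial peptides, and its daughter cells mature into absorptive enterocytes as they move onto the villus. The duodenal epithelium also makes glucose from precursors, detoxifies ingested compounds, and presents antigen to lymphocytes that sit between its cells. A scraped crypt holds all of these cells together with stroma, so in these bulk samples fewer cells of a type and less RNA per cell cannot be told apart.

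The 10 libraries held from 2943846 to 4952192 counts, against 1463938 to 7199801 in the whole series. Cell type markers were summed as CPM, the count scaled to a fixed library size by the TMM method. The 14 Paneth cell markers summed to 39900, 45000, 22200, 3550, and 14000 CPM in control mice 46 to 50 and to between 23800 and 38300 CPM at 20 ppm. The 26 villus enterocyte markers summed to 93600 CPM in control mouse 49, to between 35700 and 55300 in the other controls, and to between 36000 and 62900 at 20 ppm. The 18 stem cell markers were lowest in mouse 49 as well, at 420 CPM against 728 to 1270 in the other controls and 940 to 1300 at 20 ppm. The control library of mouse 49 therefore stood apart from its group, with the lowest crypt and the highest villus marker sums. Results are given with it, and most calls and list medians also without it. Shares at an unadjusted p and means by dose are given with it only. The villus marker sum of mouse 49 lay within the 57800 to 110000 CPM of the 5 untreated villi of day 8, as did the 62900 CPM of exposed mouse 366. The lowest of these villi was that of control mouse 48. The other untreated villi had at least 89100 CPM, which among the 10 crypts only mouse 49 exceeded. Pancreatic acinar markers, which do not belong to the duodenal lining, summed to 38.7 CPM in control mouse 50 and to between 4740 and 45700 in the other 9 libraries. The crypt label was checked against the untreated villi of day 8, whose Paneth cell sums ran from 3200 to 26800 CPM and stem cell sums from 323 to 1080 CPM. Control mice 48, 49, and 50 and exposed mouse 366 lay within that Paneth range, and the other 6 crypts lay above it. By stem cell markers, control mice 49 and 50 and exposed mice 366, 367, and 370 were no higher than the highest villus. Both of these highest villus sums came from control mouse 48. The other untreated villi reached at most 477 CPM for stem cell and 11900 CPM for Paneth cell markers. Of the 10 crypts, only that of control mouse 49 lay within the ranges of those villi.

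**Figure D1:**
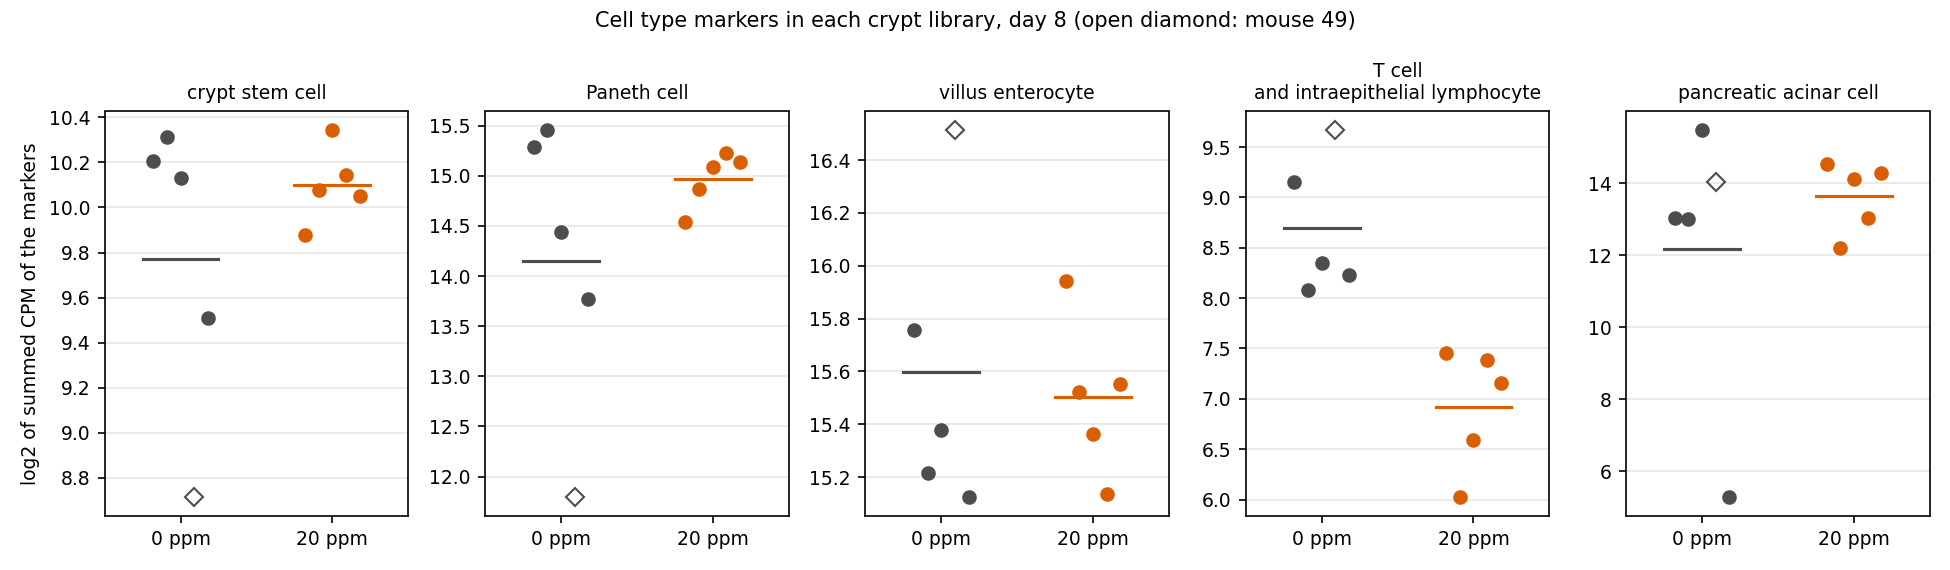
Summed CPM of 5 lists of cell type markers on a log2 axis, with 1 point per crypt library at day 8, the line at the mean of the log2 values, and mouse 49 as an open diamond. Mouse 49 was lowest in stem and Paneth cell markers and highest in villus enterocyte markers, and the T cell and intraepithelial lymphocyte sums of the groups did not overlap.

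At 20 ppm, 26 genes were lower and 4 higher in the crypt at day 8 (edgeR's quasi-likelihood test with all groups of the series in 1 fit, Benjamini-Hochberg adjusted p under 0.1). The gene with the smallest adjusted p was Pck1, the cytosolic phosphoenolpyruvate carboxykinase that commits carbon to gluconeogenesis. The others that fell included the class I histocompatibility genes H2-T23, H2-Q2, and H2-K1, the lymphocyte genes Gzma and Ccl5, the glucocorticoid-induced genes Sgk1 and Tsc22d3, and the absorptive enterocyte genes Mgam and Apob. Ugt2b5, Ddx39, Tubb4b, and Abcb1a rose. The 30 genes had 33 probes called of 26365 tested, or 0.125% of probes, with 0.11% called lower and 0.0152% called higher. An unadjusted p under 0.05 was reached by 1345 probes at lower and 1518 at higher levels.

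Of the 29 probes called lower, 24 had all 5 exposed libraries below all 5 controls, and 3 of the 4 probes called higher had all 5 above. Among all probes tested, 0.66% did not overlap in the lower direction and 1.04% in the higher. Mouse 49 was the highest control for 26 of the 29 probes called lower. Without that library 8 genes were called by edgeR (0.0228% of probes lower and 0.00759% higher): Pck1, H2-T23, Sgk1, Banp, Gzma, and Tsc22d3 lower, and Ugt2b5 and Abcb1a higher, all of them among the 30. With the log2 ratio of crypt to villus marker sums as a covariate 19 genes were called, and 18 of these were among the 30. DESeq2, the tool the study used, called 197 genes with all libraries (1.98% of the 8480 probes it gave an adjusted p lower, 0.531% higher), 29 of them among the 30. Without mouse 49 it called 26 genes (0.0893% of 21265 probes lower, 0.0376% higher), 18 of them among the 30. Below, a gene is called where edgeR with all libraries called it, and calls by DESeq2 are named as such.

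**Figure D2:**
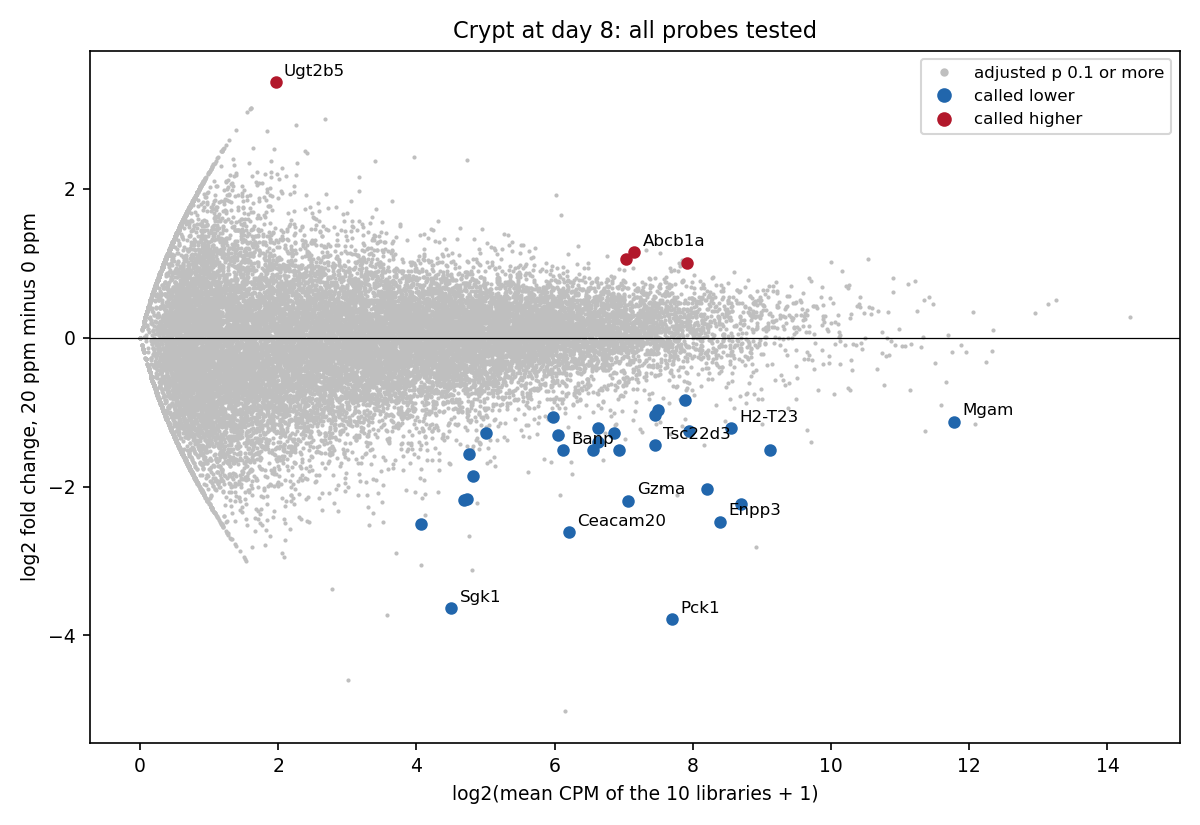
Log2 fold change (20 ppm minus 0 ppm) of each of 26365 probes against log2(mean CPM of the 10 crypt libraries + 1). Most called probes lay below 0, with Pck1 and Sgk1 farthest below, and Ugt2b5 lay at a low mean CPM.

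The promoters of 4 genes are shown because these genes head the groups described next: Pck1 for gluconeogenesis, Sgk1 and Tsc22d3 for the glucocorticoid response, and H2-T23 for class I antigen presentation. The sequences are RefSeq windows on GRCm38.p6, from 250 bases before to 50 bases after an annotated start, written 5′ to 3′ on the strand of the gene. Capitals mark matches on either strand to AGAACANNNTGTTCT (the palindrome of the glucocorticoid response element), AGAACA (a single arm of that palindrome, counted also inside it), GAAANNGAAA (the core of the interferon-stimulated response element), and TGACG (a single arm of the cAMP response element). Sgk1 has 6 annotated windows and Tsc22d3 has 3, and the window printed for each was picked because it held the most matches to AGAACA.
Pck1, chr2:173152823-173153122, plus strand: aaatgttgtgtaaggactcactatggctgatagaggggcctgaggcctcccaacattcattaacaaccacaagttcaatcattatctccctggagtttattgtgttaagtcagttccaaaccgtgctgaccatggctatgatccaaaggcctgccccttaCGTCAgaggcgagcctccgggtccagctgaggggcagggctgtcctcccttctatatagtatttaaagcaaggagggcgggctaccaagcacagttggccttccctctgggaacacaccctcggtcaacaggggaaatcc
Sgk1, chr10:21993640-21993939, plus strand: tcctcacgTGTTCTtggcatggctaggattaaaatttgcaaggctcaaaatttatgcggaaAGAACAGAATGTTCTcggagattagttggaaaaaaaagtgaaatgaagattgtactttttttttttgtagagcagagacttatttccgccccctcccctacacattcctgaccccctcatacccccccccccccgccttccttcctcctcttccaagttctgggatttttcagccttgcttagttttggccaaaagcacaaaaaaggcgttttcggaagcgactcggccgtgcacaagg
Tsc22d3, chrX:140600473-140600772, minus strand: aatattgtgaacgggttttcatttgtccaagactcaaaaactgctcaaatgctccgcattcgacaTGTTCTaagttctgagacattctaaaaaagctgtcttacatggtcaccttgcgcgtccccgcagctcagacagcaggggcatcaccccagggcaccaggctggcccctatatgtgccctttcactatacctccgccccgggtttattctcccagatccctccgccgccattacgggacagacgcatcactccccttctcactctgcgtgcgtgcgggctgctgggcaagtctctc
H2-T23, chr17:36032652-36032951, minus strand: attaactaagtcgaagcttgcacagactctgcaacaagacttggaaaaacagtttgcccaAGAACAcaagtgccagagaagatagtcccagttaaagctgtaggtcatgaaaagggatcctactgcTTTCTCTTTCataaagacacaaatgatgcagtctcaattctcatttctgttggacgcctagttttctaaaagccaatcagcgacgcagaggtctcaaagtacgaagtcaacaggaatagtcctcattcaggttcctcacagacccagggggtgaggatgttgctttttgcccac
Of the 32851 windows of all genes, 0.00913% held the palindrome, 19% AGAACA, 3.44% GAAANNGAAA, and 20.8% TGACG. Counted by gene, 0.0111% had the palindrome in at least 1 window, 21.3% had AGAACA, 3.99% had GAAANNGAAA, and 23% had TGACG. Of the 26 genes called lower, 22 had a window, and among these the palindrome was found in 1 (Sgk1), AGAACA in 6, GAAANNGAAA in 5, and TGACG in 6. A gene with several windows has more chances of a match, and a match describes letters, not binding.

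Pck1 and Sgk1 had the most negative log2 fold changes of the called genes, and their order depended on the tool (edgeR -3.78 and -3.63, DESeq2 -3.89 and -3.96). The probe of Pck1 read 267, 109, 221, 976, and 350 CPM in control mice 46 to 50, and 50.6, 25.1, 19.8, 20, and 22.4 CPM in exposed mice 366 to 370. Every exposed crypt was below every control, and the highest exposed value was that of mouse 366. The log2 fold change was -3.78 (SE 0.588, adjusted p = 6.09e-05), and -3.08 without mouse 49 (adjusted p = 0.00472). Pck1 (chromosome 2, 173153048 to 173159273, GRCm38) was called in every alternative fit planned for the comparison. It was also called when the 5 crypts at 1.4 ppm, or those at 0.1 ppm, replaced the controls (log2 -3.30 and -3.69).

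The list of 7 gluconeogenesis genes had 1 member called, Pck1, and a median log2 fold change of -0.63, against 0 over all genes. Without mouse 49 the median of the list was -0.49. G6pc, the phosphatase that releases free glucose, averaged 10.2 CPM in controls and 2.09 at 20 ppm, and its groups did not overlap, but its log2 fold change of -2.03 did not pass (adjusted p = 0.423); it was picked after its values were seen. Pcx, which makes oxaloacetate for Pck1, had 80.0 ± 33.5 CPM (SD, n = 5) in controls and 44.6 ± 8.2 (n = 5) at 20 ppm (adjusted p = 0.423). The mitochondrial isoform Pck2 had 127 ± 22.2 and 140 ± 16.4 CPM, a log2 difference of 0.14.

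Sgk1 and Tsc22d3 are textbook targets of the glucocorticoid receptor; the first encodes a kinase that regulates ion transport and the second the leucine zipper protein GILZ. Sgk1 read 28.8, 16.6, 30.8, 107, and 20.9 CPM in the controls and 3.06, 4.53, 3.55, 1.11, and 1.42 CPM at 20 ppm. The groups were apart, with mouse 49 the highest control, and the log2 fold change was -3.63 (SE 0.623, adjusted p = 0.000369). Tsc22d3 read 342, 236, 267, 238, and 190 CPM in the controls and 96.6, 73.8, 76.4, 115, and 107 CPM at 20 ppm. In this gene mouse 49 lay inside the control range, and the log2 fold change was -1.44 (SE 0.308, adjusted p = 0.0129). Without mouse 49 the log2 fold changes were -2.90 for Sgk1 and -1.46 for Tsc22d3, and both were called.

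Among the 18 glucocorticoid-response genes 2 were called lower and none higher, and 7 had lower levels at an unadjusted p under 0.05, or 38.9% against 5.44% of all genes. The median log2 fold change of the list was -1.04, and -1.05 without mouse 49. DESeq2 called Nfkbia as well, but not without mouse 49. Nfkbia, the inhibitor of NF-kappa-B, averaged 92.0 ± 22.4 CPM in controls and 47.6 ± 7.96 at 20 ppm, and did not pass in edgeR (adjusted p = 0.423). Fkbp5, a chaperone partner that glucocorticoids induce in many tissues, had 170 ± 57.0 and 146 ± 42.0 CPM (log2 -0.22).

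Class I molecules carry peptides to CD8 T cells, and H2-T23 encodes Qa-1, the nonclassical molecule read by inhibitory receptors of lymphocytes. H2-T23 was called by 2 probes. The first, H2-T23_72662, read 949, 501, 644, 1480, and 517 CPM in controls and 358, 219, 270, 339, and 249 CPM at 20 ppm. The second, H2-T23_63849, read 564, 348, 463, 885, and 370 CPM in controls and 248, 176, 174, 275, and 256 CPM at 20 ppm. Both probes separated the groups, with log2 fold changes of -1.51 (SE 0.258, adjusted p = 0.000369) and -1.22 (SE 0.242, adjusted p = 0.00416). Without mouse 49 the first had a log2 fold change of -1.18 and the second -0.95, and edgeR called the first only, while DESeq2 called both (adjusted p = 0.015 and 0.0649).

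H2-Q2, another class I gene, read 194, 129, 150, 307, and 116 CPM in controls and 105, 46.3, 55.7, 50.5, and 56.1 CPM at 20 ppm. Exposed mouse 366 lay just below the lowest control, and the log2 fold change was -1.51 (SE 0.304, adjusted p = 0.00509). H2-K1, a classical class I heavy chain, was called by its probe H2-K1_70796 at 304 ± 111 CPM in controls and 169 ± 18.4 at 20 ppm (log2 -0.84, adjusted p = 0.0779). Its better covered probe missed the threshold at 548 ± 144 and 322 ± 53.2 CPM (log2 -0.76, adjusted p = 0.133). Class I genes are near copies of each other, so counts may be shared between them.

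Of 24 genes of class I presentation 3 were called lower and none higher, and 11 (45.8%) had lower levels at an unadjusted p under 0.05. Their median log2 fold change was -0.73, and -0.69 without mouse 49. DESeq2 called 8 of them lower with all libraries, and H2-Q2 and H2-T23 without mouse 49. Positive log2 fold changes were found for 4 members, among them Pdia3 (807 ± 189 and 1090 ± 142 CPM) and Calr (395 ± 156 and 554 ± 164 CPM), chaperones of protein folding in general. In the class II list edgeR called none of 8 genes, and DESeq2 called Cd74 and Ctss lower with all libraries but none without mouse 49. Of the 8 genes, 6 had lower levels at an unadjusted p under 0.05, and the median was -1.04. Cd74, the invariant chain, averaged 705 ± 280 CPM in controls and 316 ± 176 at 20 ppm (log2 -1.16, adjusted p = 0.423). Of the 33 interferon-response genes edgeR called none and DESeq2 2 lower (Ifi27l2b and Igtp), or none without mouse 49. The median of the list was -0.30, or -0.19 without mouse 49. Irf1, a transcription factor that interferon induces, had 544 ± 123 and 356 ± 64.2 CPM (adjusted p = 0.423).

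Gzma encodes granzyme A, a protease of cytotoxic lymphocytes. It read 361, 131, 139, 384, and 80.3 CPM in controls and 78.2, 14.5, 41.5, 29.1, and 74.3 CPM at 20 ppm. The highest exposed value, in mouse 366, lay just below the lowest control, mouse 50, and the log2 fold change was -2.19 (SE 0.395, adjusted p = 0.00066). Ccl5, a chemokine that such lymphocytes release, read 28.5, 22.3, 27.4, 86.8, and 47.2 CPM in controls and 17.5, 4.72, 4.44, 7.77, and 10.8 CPM at 20 ppm, without overlap (log2 -2.17, adjusted p = 0.0779). Without mouse 49 neither tool called Ccl5 (log2 -1.75 in edgeR), while Gzma was called by both (in edgeR log2 -1.89, adjusted p = 0.0411).

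The 13 markers of T cells and intraepithelial lymphocytes summed to 568, 270, 326, 815, and 301 CPM in controls and to 175, 65, 96.3, 167, and 143 CPM at 20 ppm, so that every exposed sum was below every control sum. Of these genes edgeR called 2 lower and DESeq2 6, and without mouse 49 both tools called Gzma alone. With all libraries 9 (69.2%) had lower levels at an unadjusted p under 0.05, and 1, Cd160, had no count in any of the 10 libraries. The median log2 fold change was -2.07, and -1.42 without mouse 49. In the untreated villi of day 8 the same markers summed to 379 to 1170 CPM. Itgae, the integrin that holds lymphocytes within the epithelium, had 42.2 ± 20.2 CPM in controls and 17.5 ± 6.7 at 20 ppm (adjusted p = 0.272). Cd3d, a chain of the T cell receptor complex, had 26.9 ± 7.56 and 19.3 ± 20.3 CPM (log2 -0.47). Marker sums of plasma and B cells (8160 to 12300 CPM in controls, 7650 to 10000 at 20 ppm) and of macrophages and dendritic cells (145 to 317 and 99.7 to 203 CPM) overlapped between groups.

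Btnl2 and Clec2d, also called lower, belong to the interface of epithelium and lymphocytes. Btnl2, a butyrophilin-like protein that restrains T cells, read 416, 233, 226, 615, and 235 CPM in controls and 158, 129, 162, 115, and 154 CPM at 20 ppm (log2 -1.26, SE 0.245, adjusted p = 0.00315). Clec2d, a ligand of lymphocyte receptors, read 234, 199, 197, 293, and 243 CPM in controls and 109, 138, 85.2, 132, and 104 CPM at 20 ppm (log2 -1.04, SE 0.219, adjusted p = 0.0114). Neither gene's groups overlapped. Without mouse 49 the log2 fold changes in edgeR were -0.95 for Btnl2 and -0.94 for Clec2d, which did not pass, while DESeq2 called both (adjusted p = 0.0263 and 0.016).

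Mgam and Apob are on the villus enterocyte list, and Enpp3, Ceacam20, Xdh, and Selenop, which are on no list, are described with them. Enpp3, an ectoenzyme that hydrolyses extracellular nucleotides, read 416, 279, 207, 1490, and 449 CPM in controls and 97.7, 106, 138, 55.2, and 112 CPM at 20 ppm. Mouse 49 was far above the other controls, yet the other 4 were also above every exposed crypt (log2 -2.47, SE 0.443, adjusted p = 0.00066). Ceacam20, a glycoprotein of the brush border, read 74, 106, 109, 224, and 116 CPM in controls and 21.4, 16.4, 27.7, 17.5, and 17.9 CPM at 20 ppm (log2 -2.61, SE 0.53, adjusted p = 0.00574). Xdh, xanthine oxidoreductase of purine breakdown, was called by both its probes (Xdh_31023, log2 -1.51, and Xdh_69921, log2 -2.18). The first of these Xdh probes read 191, 89.6, 81, 236, and 92.4 CPM in controls and 54, 38, 48, 35.8, and 64.6 CPM at 20 ppm, again without overlap.

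Selenop, the selenium transport protein, was called by 2 probes. Its probe Selenop_79409 read 533, 349, 360, 1630, and 529 CPM in controls and 316, 82.5, 96.6, 102, and 123 CPM at 20 ppm (log2 -2.24, SE 0.422, adjusted p = 0.00182). Mgam, the maltase-glucoamylase of the brush border, read 5070, 3950, 3980, 8490, and 2630 CPM in controls and 2370, 1790, 2810, 1340, and 2720 CPM at 20 ppm. Here exposed mice 368 and 370 exceeded control mouse 50, so the groups overlapped (log2 -1.13, SE 0.26, adjusted p = 0.0375). Apob, the scaffold of chylomicrons, averaged 143 ± 76.1 and 53.7 ± 17.6 CPM (log2 -1.40, adjusted p = 0.0468). Without mouse 49 edgeR called none of Enpp3, Ceacam20, Xdh, Selenop, Mgam, and Apob, whose log2 fold changes were then -1.72, -2.29, -1.23 (Xdh_31023), -1.62 (Selenop_79409), -0.82, and -1.23. DESeq2 called 5 of these genes without that library, all but Mgam (adjusted p from 0.038 to 0.0983).

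Of 26 villus enterocyte markers edgeR called 2 lower and DESeq2 5. Without mouse 49 edgeR called none and DESeq2 Apob alone. With all libraries 10 (38.5%) had lower levels at an unadjusted p under 0.05. The median log2 fold change of the 26 was -0.55 with mouse 49 and -0.21 without it. The most abundant, the fatty acid binding protein Fabp2, averaged 18700 ± 8710 CPM in controls and 22500 ± 6110 at 20 ppm (log2 0.27), in the other direction from Apoa1 (6000 ± 4270 and 2680 ± 856 CPM). Villin, Vil1, had 5400 ± 2200 and 4310 ± 728 CPM. In the untreated mice of day 91, which share no sample with the comparison, 20 of the 26 genes called lower were higher in villus than in crypt, against 2.97% of all probes. Enpp3 was higher in villus by a log2 of 3.19 (adjusted p = 1.3e-06). Of the 4 genes called higher, Ddx39 was lower in villus than in crypt (log2 -0.87), against 6.75% of all probes. The part of tissue makeup in these results beyond the fits without mouse 49 and with the marker covariate was not tested.

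Banp, a nuclear protein that binds DNA at promoters, read 115, 107, 99.1, 77.5, and 112 CPM in controls and 24.2, 27.4, 40.4, 35.5, and 49.9 CPM at 20 ppm. Unlike in most of these genes, mouse 49 was the lowest control, and the groups were far apart (log2 -1.51, SE 0.266, adjusted p = 0.000571). Without mouse 49 the log2 fold change was -1.59 (adjusted p = 0.00162). Herpud1, a component of degradation at the endoplasmic reticulum, read 144, 126, 168, 202, and 172 CPM in controls and 61.2, 79.5, 76.6, 70.2, and 45.1 CPM at 20 ppm (log2 -1.28, adjusted p = 0.0374), and without mouse 49 the log2 was -1.19, which edgeR did not call and DESeq2 did (adjusted p = 0.0294). It was the only member either tool called with all libraries among 24 genes of the unfolded protein response. Their median log2 fold change was 0.06, or -0.08 without mouse 49, and the chaperone Hspa5 had 2640 ± 493 and 2420 ± 561 CPM.

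The remaining genes called lower had adjusted p from 0.0324 to 0.0984. Slco2a1, a prostaglandin transporter whose groups overlapped, averaged 39.5 ± 26.8 and 13 ± 3.24 CPM. Acaa1a, a thiolase of peroxisomal fatty acid oxidation, averaged 84.4 ± 26.7 and 40.2 ± 7.45 CPM by its called probe Acaa1a_79478. The best covered probe of Acaa1a was not called. Acaa1a was the 1 member edgeR called of 37 PPAR and fatty acid genes, and DESeq2 called Angptl4 lower too. The median of that list was -0.10, or 0.02 without mouse 49. The last 6 were named after their values were seen: 2010003K11Rik, Aldh4a1, Parp12, Gsdmd, Ptprr, and Espn. Their log2 fold changes were -1.22, -2.50, -1.28, -0.97, -1.86, and -1.31 in that order. Aldh4a1 and Espn overlapped between groups and the other 4 did not, and neither tool called a gene of this paragraph without mouse 49.

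**Figure D3:**
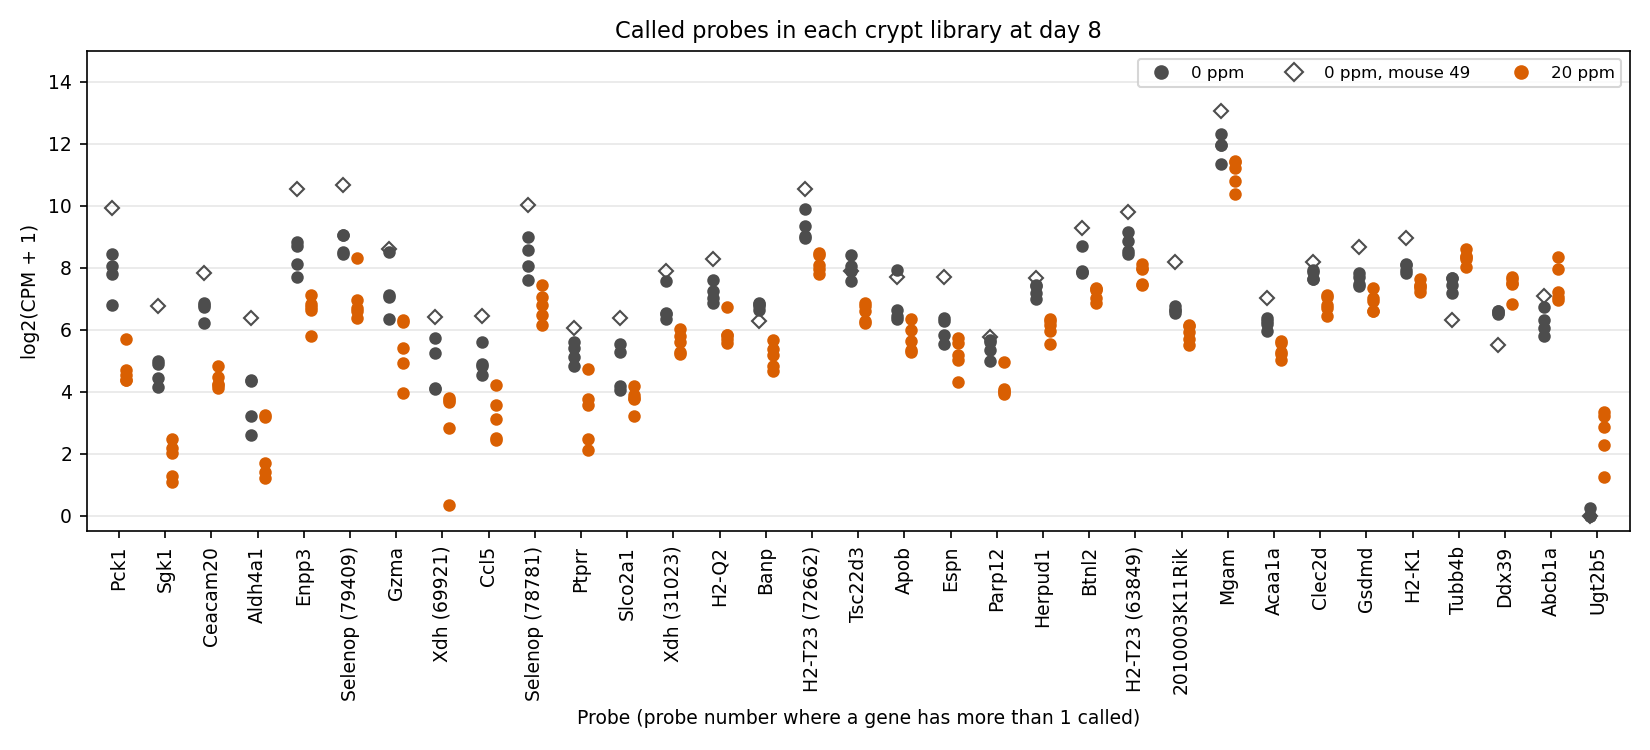
Level of each called probe, as log2(CPM + 1), in the 5 control and 5 exposed crypt libraries of day 8, with control mouse 49 as an open diamond and probes ordered by fold change. Mouse 49 was the highest control for 26 of the 29 probes called lower, and Ugt2b5 was near 0 in all controls.

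Abcb1a, Ddx39, Tubb4b, and Ugt2b5 rose. Abcb1a, the drug efflux pump of the epithelial surface, read 79.1, 54, 106, 134, and 65.3 CPM in controls and 323, 250, 122, 133, and 148 CPM at 20 ppm. Exposed mice 368 and 369 lay below control mouse 49 and the groups overlapped (log2 1.15, SE 0.289, adjusted p = 0.0957). Without mouse 49 Abcb1a was called at a log2 of 1.35 (adjusted p = 0.088). Ddx39, an RNA helicase of messenger RNA export, read 92.3, 97.3, 89.9, 44.5, and 97.2 CPM in controls and 112, 181, 197, 208, and 178 CPM at 20 ppm (log2 1.05, SE 0.223, adjusted p = 0.0117). These values are of Ddx39_68684, 1 of 3 probes of the gene, and its best covered probe was not called. Tubb4b, a beta tubulin, read 173, 202, 204, 77.8, and 143 CPM in controls and 261, 328, 309, 384, and 325 CPM at 20 ppm (log2 1.0, SE 0.239, adjusted p = 0.0524). Mouse 49 was the lowest control for Ddx39 and Tubb4b, and without it edgeR called neither (log2 0.89 and 0.83), while DESeq2 called Ddx39 (adjusted p = 0.0558).

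Ugt2b5, a glucuronosyltransferase of phase II metabolism, was called by its probe Ugt2b5_31589 alone. That probe had no count in 4 controls and 1 count in mouse 50, and read 3.9, 9.06, 6.22, 1.39, and 8.22 CPM at 20 ppm. Against a limit of 3 counts in each control library, which covers counting error only because reads are PCR copies, this is at least 7.2-fold higher. By the same probe the untreated crypts of day 91 read 10.7, 1.64, 12, 3.85, and 17.7 CPM, so the low level of the day 8 controls was not shared by them. The better covered probe of Ugt2b5 did not pass, with a mean of 83.3 CPM in controls and 135 at 20 ppm (log2 0.69, adjusted p = 0.495). Ugt2b genes are close copies, so a single low probe may be shared among them.

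Ugt2b5 and Abcb1a were the 2 genes called higher, and Slco2a1 the 1 called lower, of 20 genes of phase II and III metabolism, with a median of 0.07. Of 38 phase I genes edgeR called none and DESeq2 5 lower (Ces2b, Cyp2b10, Cyp2d22, Cyp3a13, and Ephx2), or none without mouse 49. Of the 38, 11 (28.9%) had lower levels at an unadjusted p under 0.05, and the median was -0.46, or -0.23 without mouse 49. Ephx2, the soluble epoxide hydrolase, averaged 1130 ± 603 and 481 ± 125 CPM (log2 -1.24, adjusted p = 0.151 in edgeR and 0.0057 in DESeq2).

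In the lists of proliferation, DNA damage, and oxidative stress, which Cr(VI) is often examined for, edgeR called no gene. DESeq2 called Gclc and Gsta3 of glutathione metabolism higher (log2 1.04 and 1.23) and the p53 target Pmaip1 lower (log2 -1.29), and none of these without mouse 49. The 37 replication genes had a median log2 fold change of 0.43 with mouse 49 and 0.25 without it, and the 39 mitotic genes 0.61 and 0.40. Pcna, the replication clamp, had 116 ± 48.0 and 120 ± 23.5 CPM, and Top2a 150 ± 47.6 and 223 ± 61.1 CPM (log2 0.57, adjusted p = 0.936). The 27 p53 targets had a median of -0.12 and the 28 Fanconi anemia and recombination genes 0.32, or -0.15 and 0.11 without mouse 49. Of 37 NRF2 and glutathione genes, 8 (21.6%) had higher levels at an unadjusted p under 0.05, against 6.23% of all genes, and the median was 0.37, or 0.43 without mouse 49. Gsta1, a glutathione transferase, averaged 682 ± 115 and 1370 ± 291 CPM without overlap of the groups (log2 1.01, SE 0.397, adjusted p = 0.423).

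Other lists had higher medians and no gene called by edgeR. DESeq2 called 3 translation initiation genes (Eif4a1, Eif5, and Eif5a), 2 splicing genes (Hnrnpa2b1 and Srsf1), and Mrps31 higher and Psmb10 lower in these lists with all libraries, and only Ebp of cholesterol synthesis (higher) without mouse 49. The 24 cholesterol synthesis genes had a median of 0.57, or 0.50 without mouse 49, with Msmo1 at 61.3 ± 7.25 and 106 ± 26.1 CPM. The 50 splicing genes had 13 (26%) at higher levels with an unadjusted p under 0.05 and a median of 0.40, and Hnrnpu averaged 422 ± 155 and 657 ± 90.4 CPM. The 79 cytosolic ribosomal proteins had 17 (21.5%) and a median of 0.43, with Rpl4 at 2220 ± 597 and 3260 ± 574 CPM. Medians of 0.35, 0.31, 0.34, and 0.23 were found for 39 translation initiation, 75 mitochondrial ribosomal, 48 proteasome, and 76 oxidative phosphorylation genes. Mouse 49 had low crypt marker sums, and without it these medians were 0.25, 0.24, 0.24, and 0.23, and that of the cytosolic ribosomal proteins 0.31. Hypoxia, iron, zinc, heat shock, nuclear receptor, bile acid, circadian, and transport lists had none called by edgeR, with medians between -0.56 and -0.02. The lowest, that of the bile acid genes, was -0.01 without mouse 49, and that of the iron genes went from -0.26 to -0.03. DESeq2 called Pfkfb3 and Vegfa (hypoxia), Heph (iron), and Slc39a14 (zinc) lower, and none of them without mouse 49. Neither tool called an inducible epithelial defence gene, and the median of that list was -0.35, or -0.22 without mouse 49.

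Paneth, stem, and goblet cell markers had none called by edgeR. The stem cell marker Rnf43 was called lower by DESeq2 with all libraries but not without mouse 49. The medians of these lists were 0.34, 0.18, and -0.02, or 0.07, 0.01, and 0.01 without mouse 49. Smooth muscle, fibroblast, tuft, enteroendocrine, and acinar markers had none called by either tool, with medians of -0.35, -0.10, -0.55, -0.21, and -0.16, or -0.56, -0.25, -0.18, -0.14, and -0.12 without mouse 49. The same held for plasma and B cell, macrophage and dendritic cell, erythrocyte, and Brunner's gland markers, at -0.20, -0.32, -0.27, and 0.33, or -0.04, -0.20, -0.50, and 0.15 without it. Of 9 genes that the study picked from these data at low doses edgeR called none at 20 ppm and DESeq2 called Ctnnd1 lower, or without mouse 49 Slc5a8 higher. The log2 of Slc5a8 was then 17.22. The study described its low dose genes, apart from Ctnnd1, as very low in expression, so this value is no reliable size. Chosen on these samples, the list is no independent evidence of a direction. Ctnnd1, a partner of cadherins, averaged 2800 ± 1060 and 1730 ± 384 CPM (log2 -0.70, adjusted p = 0.423 in edgeR), and Muc6, a mucin of Brunner's glands, 14 ± 30.2 and 0.0555 ± 0.124 CPM. Of the 24 immediate early genes edgeR called none and DESeq2 Fos, Jun, and Zfp36 lower, or none without mouse 49. The median was -0.71, with 7 (29.2%) at lower levels with an unadjusted p under 0.05, and Btg2 at 63.0 ± 34.5 and 32.9 ± 8.98 CPM.

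The other doses of day 8 share the 5 control crypts, so their group means are only set beside each other here. Pck1 averaged 385, 361, 276, 126, 27.6, 15.6, and 2.89 CPM at 0, 0.1, 1.4, 5, 20, 60, and 180 ppm. Gzma averaged 219, 116, 122, 81.0, 47.5, 28.7, and 13.1 CPM, and H2-T23 (by H2-T23_72662) 818, 558, 510, 436, 287, 255, and 249 CPM. Sgk1 averaged 40.7, 13.4, 9.99, 7.23, 2.73, 1.55, and 3.58 CPM, Tsc22d3 255, 172, 152, 98.2, 93.8, 62.3, and 74.5 CPM, and Banp 102, 61.7, 50.6, 48.9, 35.5, 32.8, and 50.3 CPM. The means at 0.1 ppm of all 6 of these genes lay below those of the controls that the doses share. For Pck1 this depended on control mouse 49, at 976 CPM. The other controls read 109 to 350 CPM of Pck1, against 198 to 671 CPM at 0.1 ppm. Ugt2b5 averaged 6.45 CPM at 0.1 ppm against 0.038 CPM in the controls. When the 20 ppm crypts were tested against those at 0.1 ppm, 2 genes were called, Pck1 and Enpp3, and against those at 1.4 ppm Pck1 alone. Ugt2b5 then differed by -0.15 on the log2 scale from 0.1 ppm.

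**Figure D4:**
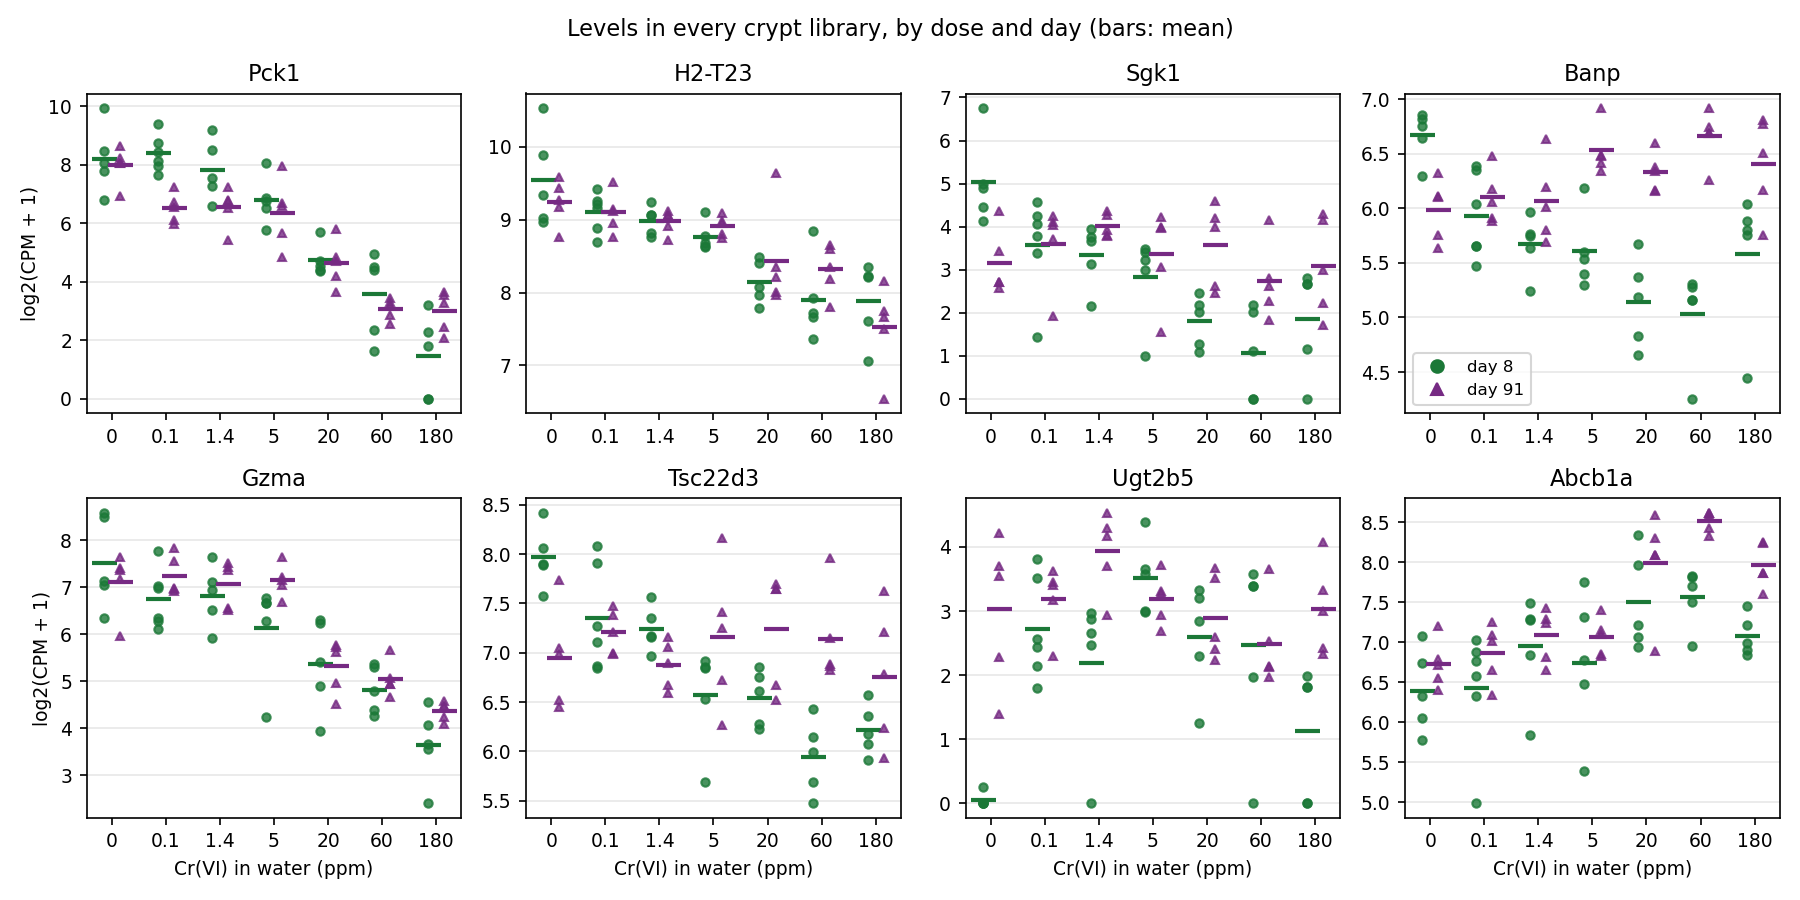
Level of 8 called genes, as log2(CPM + 1), in every crypt library by dose (evenly spaced categories) at day 8 (circles) and day 91 (triangles), with bars at the means of these log values. Pck1 had its lowest means at 60 and 180 ppm on both days, while Sgk1, Banp, and Tsc22d3 at day 91 had no lower mean at 20 ppm than at 0 ppm.

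Whether the crypt response at 20 ppm was the same at day 91 was asked in other mice, 5 at each dose. Of the 26 genes called lower at day 8, 6 were called lower at day 91, where 0.0683% of all probes were, and 22 had lower levels by every called probe. Pck1 (log2 -3.27, adjusted p = 0.000701), Gzma (log2 -1.83, adjusted p = 0.0179), and Selenop (by Selenop_79409, log2 -1.86, adjusted p = 0.0269) were among them, with Apob, H2-T23, and Xdh. Abcb1a was called higher again (log2 1.34, adjusted p = 0.0179), 1 of the 4 genes called higher, where 0.148% of all probes were.

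The change of effect between days was itself called for 2 genes, 0.00759% of probes. Sgk1 had a log2 fold change of 0.50 (SE 0.562) at day 91, and the difference from day 8 was 4.13 (SE 0.825, adjusted p = 0.0281). Its untreated crypts averaged 40.7 ± 37.3 CPM at day 8 and 9.1 ± 6.21 CPM at day 91, and its 20 ppm crypts 2.73 ± 1.45 and 13 ± 8.07 CPM. Banp had a log2 fold change of 0.33 (SE 0.26) at day 91, a difference of 1.84 (SE 0.371, adjusted p = 0.0281), with untreated crypts at 102 ± 15 CPM on day 8 and 63.4 ± 12.4 on day 91. For both genes the mean of the untreated crypts was lower, and that of the 20 ppm crypts higher, at day 91 than at day 8. Tsc22d3 had a log2 fold change of 0.30 at day 91, and its difference of 1.74 did not pass (adjusted p = 0.328). Neither change was called without mouse 366 of the 20 ppm crypts at day 8, mouse 3 of the untreated crypts at day 91, or mouse 328 of the 20 ppm crypts at day 91, and leaving out any of 5 other libraries (control mouse 49 at day 8 among them) left 1 called.

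Villi of the same mice were measured in 9 further libraries, 5 at 0 ppm and 4 at 20 ppm. Of the 26 genes called lower in the crypt, 13 were called lower in the villus, where 0.838% of all probes were, and all 26 had negative log2 fold changes. Abcb1a and Ddx39 were called higher in the villus, 2 of 4, where 0.501% of all probes were. Pck1 had a log2 fold change of -4.03 in the villus (adjusted p = 5.7e-05), and Tsc22d3 -2.43 (adjusted p = 3.59e-06). Because villus and crypt came from the same mice, these are not independent animals.

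A change of the 20 ppm effect between compartments was called for 0 genes (0%), although 3398 probes had an edgeR p under 0.05 before adjustment. With the mouse as a block, which pairs the compartments, 57 genes were called (0.216% of probes), and DESeq2 called 80. None of the 30 genes called in the crypt was among the 57, the smallest adjusted p of their probes being 0.251. The difference between villus and crypt in the blocked fit was -0.57 (SE 0.409) for Pck1 and -0.93 (SE 0.371) for Tsc22d3.

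**Figure D5:**
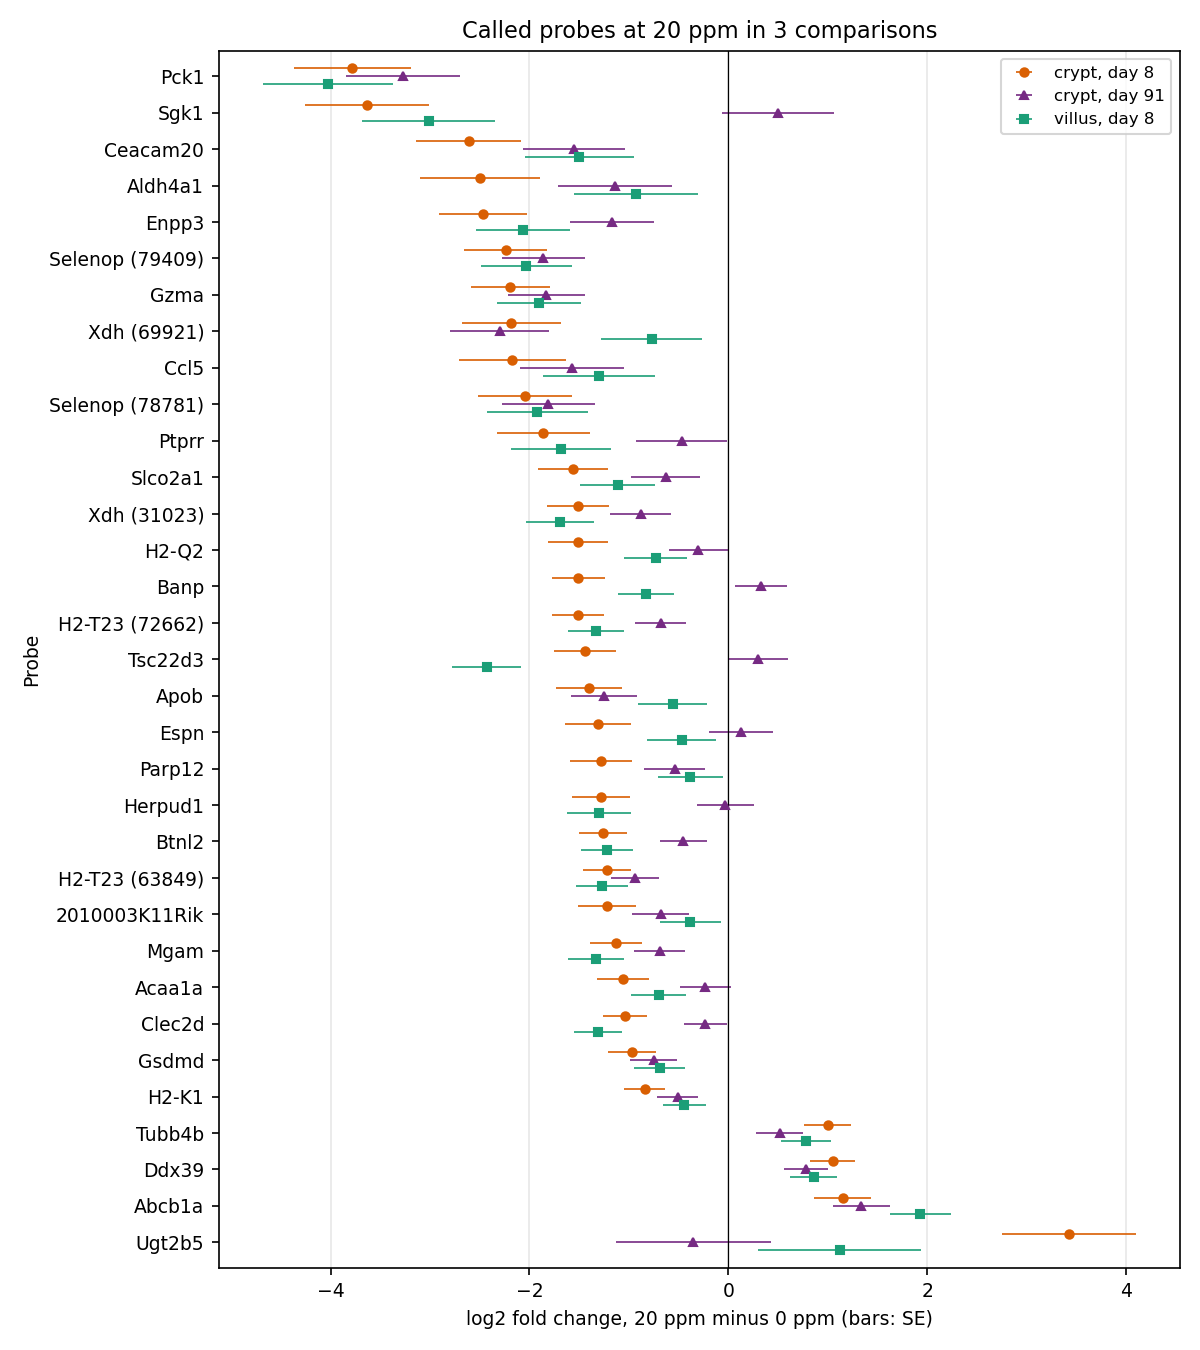
Log2 fold change (20 ppm minus 0 ppm) with its SE of each called probe in the crypt at day 8, the crypt at day 91, and the villus at day 8. All probes called lower in the crypt at day 8 lay below 0 in the villus, and Sgk1, Banp, Tsc22d3, and Espn lay above 0 in the crypt at day 91.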

How the data were processed

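RNA of 137 duodenal crypt and villus samples was measured by TempO-Seq, and the 10 crypts at 0 and 20 ppm of day 8 were compared. The authors deposited raw counts of reads per probe (30146 probes), not normalized. The submitters' processing notes name bcl2fastq 2.17.1.14 and Bowtie, and the genome build of the probe mapping is not given in the sources used here. No column lacked a sample (0 unmapped). Libraries of the members held 2943846 to 4952192 counts.

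Counts were fitted with edgeR 4.0.16 in R 4.3.3 (TMM scaling, filterByExpr, trended dispersion, quasi-likelihood test, all groups in 1 fit without a replicate block), and probes with a Benjamini-Hochberg adjusted p under 0.1 were called. Log2 fold changes used a prior count of 2, the SE was the absolute log2 fold change over the root of F, and CPM used the scaled library sizes. Of the probes, 26365 of 19020 genes were tested. A gene was represented by its probe with the most counts, unless another was called. The test was checked on simulated data, where it recovered 87 of 100 probes changed 4-fold and 18 of 100 changed 2-fold. The changed probes were drawn from those of higher CPM in the controls. Simulated spread followed the fitted trend, and no simulated library was set apart as mouse 49 was. Recovery in the real data can therefore be lower. A list with none called can still hold changes of 2-fold, and of 4-fold where probes are low or vary more between mice. Replicates were separate mice, and no 2 libraries agreed within sampling noise.

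Named genes were the 12 called genes of smallest adjusted p per direction (all if fewer), the 5 called genes of highest mean CPM, the called and up to 4 most abundant members of each gene list, the low dose genes of the study, and up to 5 genes per change of effect. Genes named only for a call by DESeq2 were chosen after their values were seen, and DESeq2 gives no adjusted p to probes its filter on low counts leaves out. Members, lists, and tests were chosen with earlier results of these data known. Alternatives were DESeq2 1.42.0, its size factors, other filters, sample sets, covariates, and each replicate left out; those fits, with the covariate and block fits, kept the dispersion trend of all libraries. Fits against the 0.1 and 1.4 ppm crypts, and DESeq2 without mouse 49, were added after seeing the data. Villus and crypt libraries of 9 mice come from the same animals, and their residuals over 7244 probes correlated by 0.035 to 0.719 (median 0.141), so the mouse pairs the compartments. Gene positions are from GENCODE on GRCm38 and promoters from RefSeq on GRCm38.p6.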

Additional observations from a re-analysis of the deposited data

Results flagged for a closer look

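Single libraries stood apart from the other 4 of their group (Dixon's test at 95%) in 12 of 94 series of 5 examined. Chance gives about 1 in 20 for independent series of normal values. These series share the same libraries and include probes that were called, so that rate cannot be set against the 12. Among the controls, mouse 49 read 1630 CPM for Selenop (by Selenop_79409) against 349 to 533, 290 for 2010003K11Rik against 92.5 to 108, 499 for H2-K1 (by H2-K1_70796) against 226 to 279, and 44.5 for Ddx39 against 89.9 to 97.3. Control mouse 50 had 0.19 CPM of Ugt2b5 (by Ugt2b5_31589), a single count, against 0, enteroendocrine markers at 193 CPM against 344 to 432, and acinar markers at 38.7 CPM against 8260 to 45700.

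At 20 ppm, mouse 366 was above the others for Pck1 (50.6 CPM against 19.8 to 25.1), H2-Q2 (105 against 46.3 to 56.1), and Parp12 (29.8 against 14.2 to 15.9), and below them for Ddx39 (112 against 178 to 208). For these 4 genes mouse 366 was the exposed library nearest to the controls. Mouse 369 read 0.278 CPM for Xdh (by Xdh_69921) against 6.04 to 12.8.

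The 20 ppm effect differed between days 91 and 8, by the test of the difference itself, for Sgk1 (log2 4.13) and Banp (log2 1.84).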

How the results depend on the processing

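The comparison of 20 with 0 ppm called 30 genes. DESeq2 called 197 (22.3% higher, against 13.3%), the newer form of the quasi-likelihood fit 59, a mean count of at least 10 called 46, the crypts of day 8 alone 15 (26.7% higher), and the marker ratio as a covariate 19. The 2 compared groups alone gave 22 genes, of which 13 were among the 30, and the crypts of day 8 shared 13. Leaving out 1 library gave 8 (without control mouse 49) to 35 genes, with 16 without mouse 367 and 18 without mouse 369. Against the 0.1 ppm crypts 2 genes were called, and Ugt2b5 reversed to -0.15; against the 1.4 ppm crypts 1 was. Pck1, H2-T23, Sgk1, and Banp were called in every planned fit, and 6 genes, with Gzma and Ugt2b5, in every fit without 1 library. For the change between compartments, called for 0 genes, DESeq2 gave 80, the mouse as a replicate block 57, and fits without 1 library 0 to 34, with 34 without villus mouse 367, 10 without villus control mouse 50, and 1 without villus mouse 366. For the change between days, called for 2 genes, DESeq2 gave 11 and fits without 1 library 0 to 4. The cause of these shifts was not tested. With 5 libraries a group, low-count probes are limited by depth. The called probe of Ugt2b5 read at most 0.19 CPM in the control crypts of day 8 but 1.64 to 17.7 CPM in the untreated crypts of day 91. What set these controls apart was not tested.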
